A study of Mus musculus with 4 samples.

Results

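White and brown fat cell genes were followed in mouse kidney through 10 genes: Adipoq, Cfd, Cidec, Plin1, Plin4, Lep, Fabp4, Retn, Cidea and Ucp1. They were the genes whose name in the array files equals one of these symbols. They were chosen because fat cell genes differed most between the arrays of the 2 injection times, so the differences between times are given as descriptions without a test. The 10 genes had 15 of the 56605 probes and were 10 of 37074 gene entries. All 10 were among the 24640 entries well above background on at least 1 array, and 6 of them (Cfd, Cidec, Plin4, Lep, Fabp4 and Cidea) were so on all 4 arrays.

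Total RNA came from the kidney of ICR mice, an outbred stock with no stated transgene or deletion, taken 1 day after injection in every group. Saline or vancomycin, a glycopeptide antibiotic that can injure the kidney, was injected at ZT2 or at ZT14. Zeitgeber time (ZT) counts hours from lights on, so that ZT2 is early in the light phase and ZT14 early in the dark phase. Each of the 4 groups (saline ZT2, vancomycin ZT2, saline ZT14, vancomycin ZT14) had 1 sample on 1 Agilent array, and whether that RNA was from 1 animal or from pooled animals is not in the labels, nor are age, sex or dose. No group therefore has a spread between animals. The ZT2 arrays shared one slide and the ZT14 arrays a second one, so the time of injection and the slide cannot be told apart. Saline took the same place on each slide and vancomycin the next place, so place and treatment cannot be told apart.

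White fat cells store triglyceride in a single large lipid droplet coated by perilipins and CIDE proteins, and release hormones called adipokines into the blood. Brown fat cells hold many small droplets and burn fatty acids for heat through uncoupling protein in the inner mitochondrial membrane. Fat of both kinds is found near the kidney in mice, whereas most of these genes are not typical of kidney tubules or glomeruli.

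The 250 bases upstream of the annotated start were read for 8 of the 10 genes from RefSeq promoters of the mouse assembly GRCm38.p6 (9 promoters, with 2 for Cidec). Fabp4 and Cidea had no entry in that table. The 4 printed here stand for the kinds of pattern described next: Adipoq and the brightest Plin1 probe were dim on both ZT14 arrays, Lep was about level on the 4 arrays, and Ucp1 was above background on a single array. Capitals mark CCAAT, or ATTGG on the other strand, and the letters TTGCNNAA, a form of the C/EBP site; both strands were searched.
Adipoq, chr16:23146286-23146535, plus strand: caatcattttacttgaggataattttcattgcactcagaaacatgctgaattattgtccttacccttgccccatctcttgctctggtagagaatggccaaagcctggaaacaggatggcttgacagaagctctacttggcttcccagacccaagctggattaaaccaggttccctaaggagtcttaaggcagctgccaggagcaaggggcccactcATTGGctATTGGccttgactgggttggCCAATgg
Plin1, chr7:79732777-79733026, minus strand: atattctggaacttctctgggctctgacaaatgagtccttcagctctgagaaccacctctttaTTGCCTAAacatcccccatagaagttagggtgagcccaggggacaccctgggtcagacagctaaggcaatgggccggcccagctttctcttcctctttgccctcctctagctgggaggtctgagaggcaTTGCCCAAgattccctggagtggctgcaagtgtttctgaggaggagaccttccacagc
Lep, chr6:29059971-29060220, plus strand: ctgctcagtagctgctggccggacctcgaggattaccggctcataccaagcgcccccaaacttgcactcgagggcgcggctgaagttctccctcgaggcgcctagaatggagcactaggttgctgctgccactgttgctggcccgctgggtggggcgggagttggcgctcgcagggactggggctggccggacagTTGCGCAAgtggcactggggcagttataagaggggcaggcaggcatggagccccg
Ucp1, chr8:83290098-83290347, plus strand: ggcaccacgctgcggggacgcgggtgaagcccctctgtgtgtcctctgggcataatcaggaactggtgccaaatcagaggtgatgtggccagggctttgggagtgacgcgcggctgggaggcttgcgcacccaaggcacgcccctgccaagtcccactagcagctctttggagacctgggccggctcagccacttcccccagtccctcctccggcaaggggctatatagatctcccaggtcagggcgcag
Adipoq held CCAAT letters 3 times, with first bases at -34, -27 and -7 from the start. Plin1 held the C/EBP-like letters at -187 and -58, and Lep at -55. Over the 9 promoters of the fat cell genes, searched in these 250 upstream bases, 3 held TTGCNNAA (Cidec, Lep and Plin1). Of 32851 RefSeq promoters searched over the same length, 9.56% held it. CCAAT was in 2 of 9 (Adipoq and Plin4), against 33.8% of all. The E-box CACGTG (6.02% of all), the TATAAA box (12.4%) and a direct repeat of the nuclear receptor core site spaced by 1 base (0.338%) were in 0 of 9 promoters. No motif overlapped another in the matches listed. These are matches of letters, and both Lep, with level signals, and Plin1, with signals that differed, held the same letters.

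Signals below are Agilent processed signals, background subtracted and not scaled between arrays, given in the order saline ZT2, vancomycin ZT2, saline ZT14 and vancomycin ZT14. Differences are in log2 units after each array was centred on the 75th percentile of its own signals, which was 547.7, 490.8, 678.1 and 651.1. Where one of a pair of arrays was not well above background, its signal was set to no less than the lowest probe above background on that array, and the difference is given as a bound ("at least"). A gene is called higher or lower when it differed by 2-fold or more, which is a rule of size and not a test. Signals of different probes are not set against each other. In bulk kidney RNA, fewer cells of a type and less RNA per cell cannot be told apart.

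The adipokines showed 2 kinds of pattern: Adipoq, Cfd and Retn were high on the ZT2 arrays, and Lep was about level. Adipoq encodes adiponectin, a hormone made by fat cells that raises insulin sensitivity (brightest probe at mm9 chr16:23157576-23157635). Its signals were 717.7, 206.6, 10.03 and 8.516, and the ZT14 signals were not well above background. Both ZT2 arrays were thus far above both ZT14 arrays. Adipoq was 3.11-fold lower with vancomycin at ZT2 (log2 -1.64), and at ZT14 it could not be compared. Between times it was at least 79.0-fold lower at ZT14 in saline and at least 20.2-fold lower in vancomycin.

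Cfd, the complement factor D that fat cells secrete as adipsin, had signals of 8477, 2501, 109.6 and 101.8 (mm9 chr10:79355302-79355361). It was well above background everywhere, so its differences are measured and not bounds. Vancomycin was 3.04-fold below saline at ZT2 (log2 -1.60), and at ZT14 the difference was -0.05. ZT14 was 95.7-fold below ZT2 in saline and 32.6-fold below in vancomycin. A second Cfd probe, which shares 32 bases with the first, gave -1.68 and 0.21 for vancomycin at the 2 times.

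Retn encodes resistin, a fat cell hormone of mice that opposes insulin action (mm9 chr8:3659757-3659816). Its signals were 741.2, 152.1, 9.299 and 31.23, and saline ZT14 was not well above background. Retn was 4.37-fold lower with vancomycin at ZT2 (log2 -2.13) but at least 2.89-fold higher with vancomycin at ZT14. The bound rests on low signals, the measured difference was 1.81, and with a pseudocount of 16 or with normexp background correction it was under 2-fold. In saline Retn was at least 81.5-fold lower at ZT14 than at ZT2, and in vancomycin it was 6.46-fold lower. A second, separate Retn probe gave -2.18 for vancomycin at ZT2, and at ZT14 it read 28.80 with vancomycin and 8.941, not well above background, with saline.

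Lep encodes leptin, which signals fat stores to the brain, and it did not follow the other adipokines. Its signals were 155.0, 163.0, 249.9 and 234.5, all well above background (1 probe, mm9 chr6:29020910-29020969). Centred on their arrays they spanned -1.82 to -1.44. The vancomycin difference was 0.23 at ZT2 and -0.03 at ZT14, and ZT14 minus ZT2 was 0.38 in saline and 0.12 in vancomycin. No second probe was there to compare.

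**Figure D1:**
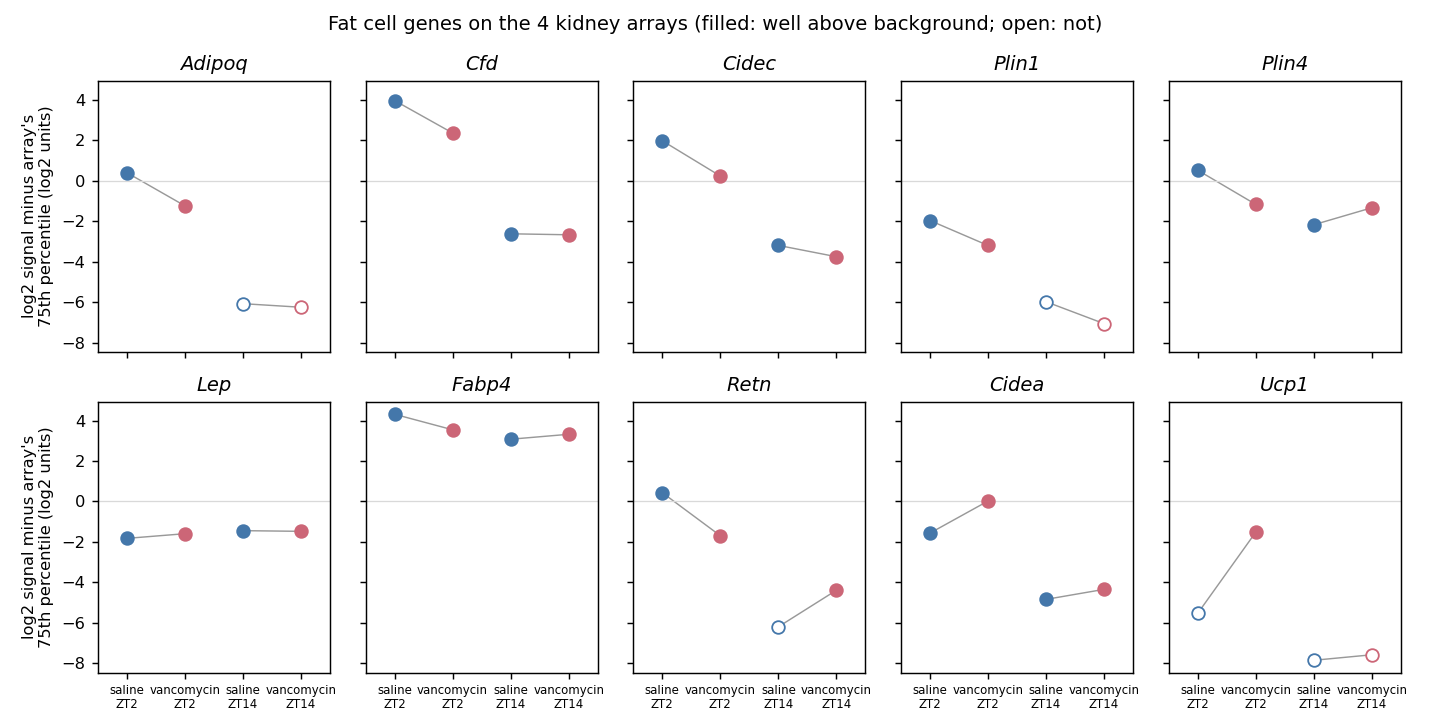
Log2 processed signal minus the 75th percentile of its array (log2 units) for each fat cell gene on the 4 arrays, 1 point per array; blue is saline, red is vancomycin, filled points are well above background and open points are not. By the brightest probe of each, Adipoq, Cfd, Cidec, Plin1, Retn and Cidea sit higher on both ZT2 arrays than on both ZT14 arrays. Lep is nearly level from -1.82 to -1.44, and Ucp1 is above background on the vancomycin ZT2 array alone.

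By the brightest probe of each lipid droplet gene, Cidec, Plin1 and Cidea were lower at ZT14 in both treatments and Plin4 in saline alone. With vancomycin at ZT2 Cidea ran opposite to the other 3. Cidec (also called FSP27) helps to fuse droplets into one large droplet. It had signals of 2142, 573.3, 73.68 and 48.03, all well above background (mm9 chr6:113374693-113374752). Vancomycin was 3.35-fold lower at ZT2 (log2 -1.74), and the difference at ZT14 was -0.56. Cidec was 36.0-fold lower at ZT14 in saline and 15.8-fold lower in vancomycin.

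Plin1, perilipin 1, guards the droplet against lipases (mm9 chr7:86866112-86866171). The brightest probe read 139.5, 53.23, 10.71 and 4.857, and neither ZT14 signal was well above background. Vancomycin was 2.35-fold lower at ZT2 (log2 -1.23). ZT14 was at least 15.3-fold below ZT2 in saline and at least 5.21-fold below in vancomycin. A dimmer Plin1 probe differed by -0.62 at ZT2, and the remaining one read 18.06 with saline and 10.61, not well above background, with vancomycin. With the mean over probes 5 rather than 6 of the fat cell genes were lower by 2-fold at ZT2. The probe that read 18.06 was above background on the vancomycin ZT14 array (21.99), where the other 2 were not. Between times that probe differed by -0.88 in saline, under 2-fold, and was higher at ZT14 in vancomycin (0.64). The lower Plin1 signal at ZT14 was thus not seen with every probe.

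Plin4, a perilipin of small and newly forming droplets, read 782.1, 217.3, 149.4 and 256.6 (mm9 chr17:56240055-56240114). It was high on 1 array, saline ZT2, at 0.51 after centring, and the other 3 lay between -2.18 and -1.18. Vancomycin was 3.22-fold lower at ZT2 (log2 -1.69) and 1.79-fold higher at ZT14 (log2 0.84). ZT14 was 6.48-fold lower than ZT2 in saline, whereas in vancomycin the difference was -0.17.

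Cidea, a droplet protein best known from brown and beige fat, went the other way with vancomycin. Its signals were 185.6, 498.8, 23.77 and 32.17, all well above background. Vancomycin was 2.998-fold higher at ZT2 (log2 1.58) and 1.41-fold higher at ZT14 (log2 0.49). Both ZT14 arrays were still far below both ZT2 arrays, 9.67-fold in saline and 20.6-fold in vancomycin.

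Ucp1, the uncoupling protein that defines brown fat heat production, was well above background on 1 of 4 arrays. It read 171.3 on vancomycin ZT2, and 11.87, 2.955 and 3.426 on saline ZT2, saline ZT14 and vancomycin ZT14 (mm9 chr8:85821788-85821847). Vancomycin was at least 16.1-fold higher than saline at ZT2. In vancomycin, ZT14 was at least 16.8-fold lower than ZT2. Ucp1 passed the filter on dim probes through this 1 array, so it had to differ there. On the other 3 arrays it has no order.

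Fabp4, the fatty acid carrier of fat cells that macrophages and capillary endothelium also make, was well above background on every array. Its main probe read 10852, 5715, 5717 and 6501 (mm9 chr3:10204452-10204511), so saline ZT2 stood above the other 3. Vancomycin was 1.70-fold lower at ZT2 (log2 -0.77) and the difference at ZT14 was 0.24. ZT14 minus ZT2 was -1.23 in saline and -0.22 in vancomycin. A second Fabp4 probe (782.4, 384.4, 841.6 and 899.1) gave -0.87 and 0.15 for vancomycin, but -0.20 and 0.82 between times, so the lower Fabp4 signal at ZT14 was seen with 1 of 2 probes. With the mean over probes the saline difference between times was -0.72, under 2-fold.

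**Figure D2:**
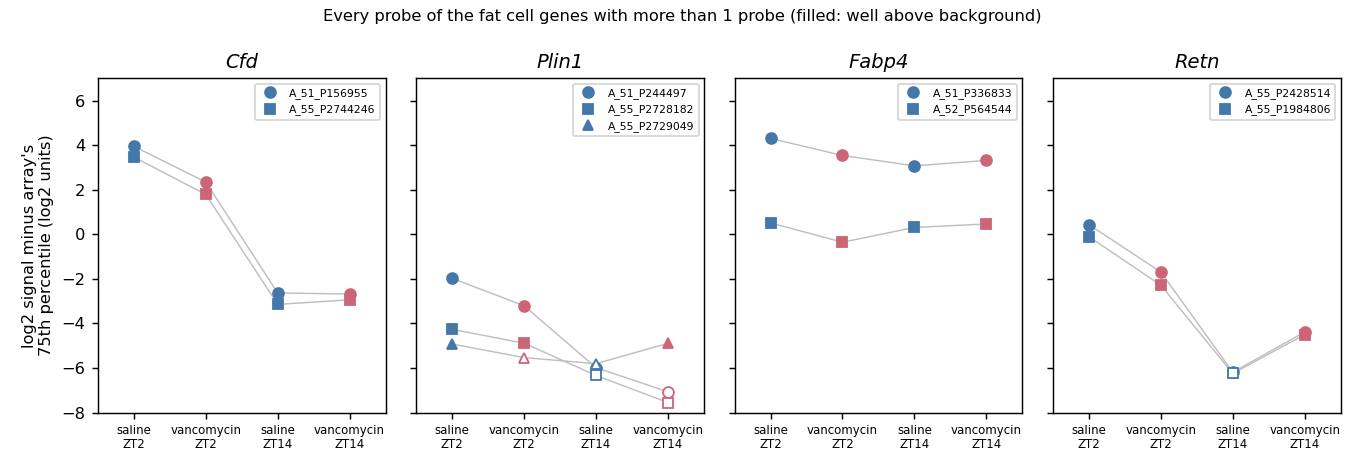
Log2 processed signal minus the 75th percentile of its array (log2 units) for every probe of the 4 genes with more than 1 probe; each marker shape is a probe, blue is saline, red is vancomycin, and filled markers are well above background. The Cfd and Retn probes run side by side, the 3 Plin1 probes part at vancomycin ZT14, and the second Fabp4 probe does not show the lower ZT14 signal of the first.

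With vancomycin at ZT2, 6 of the 10 genes were lower by 2-fold or more (Adipoq, Cfd, Cidec, Plin1, Plin4 and Retn) and 2 were higher (Cidea, and Ucp1, which entered through the array where it is high). Among all 22931 genes compared, 3.89% were lower and 1.98% were higher. Over the 6 fat cell genes above background on all 4 arrays, 3 were lower and 1 was higher. Among all 20772 genes above background on all 4 arrays, 3.01% were lower and 1.33% higher. The median over the 10 genes was -1.42 against -0.0031 over all genes. Lep and Fabp4 were neither. This pair shares its saline ZT2 and vancomycin ZT2 arrays with the differences between times by which the genes were chosen.

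At ZT14, 7 genes could be compared, and 1 of them, Retn, was higher with vancomycin, with 0 lower; among all 23707 genes 1.62% were higher and 2.88% lower. The median over the 7 was 0.24 against 0.0054 over all genes. For Adipoq, Ucp1 and the brightest Plin1 probe neither ZT14 signal was well above background. By the brightest probe of each, of the 6 white fat markers Adipoq, Plin1, Cidec, Lep, Cfd and Retn, 6 were well above background on each ZT2 array, 3 on saline ZT14 and 4 on vancomycin ZT14, where a dimmer Plin1 probe also passed.

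**Figure D3:**
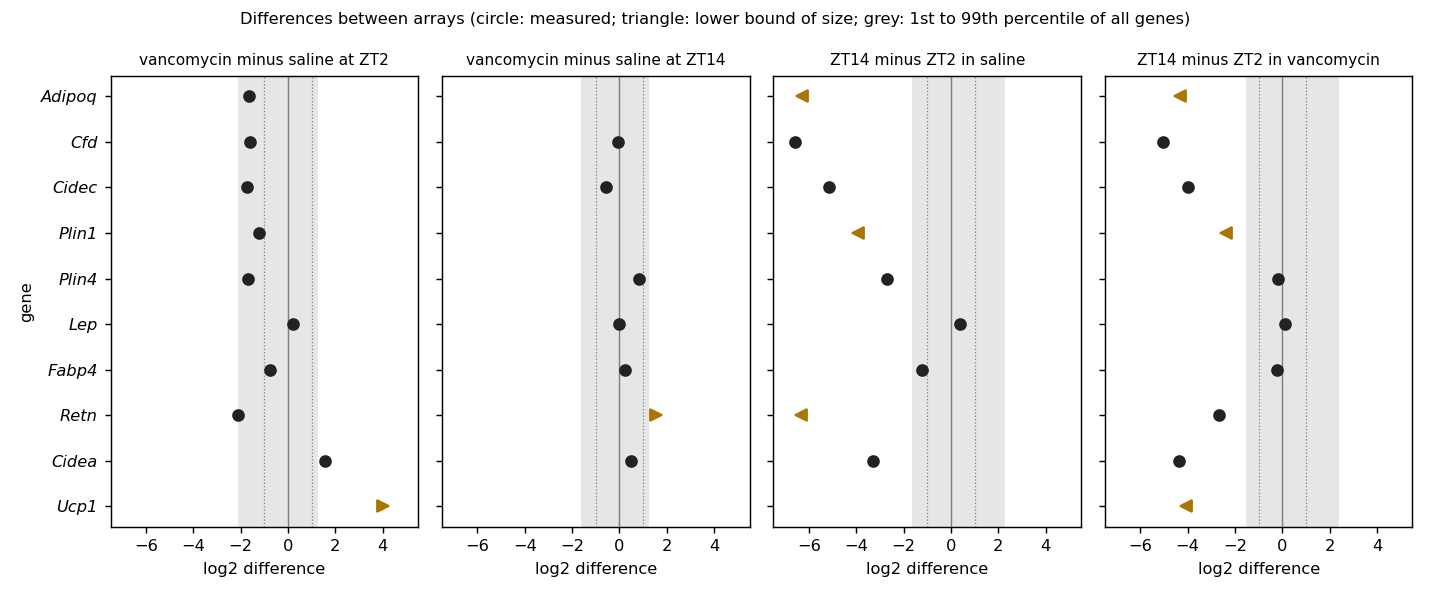
Log2 differences between arrays for each fat cell gene, in 4 panels for the 4 pairs of arrays; circles are measured differences, triangles are bounds, dotted lines mark 2-fold, and the grey band spans the 1st to the 99th percentile of all genes. At ZT2, 6 genes lie below -1 and 2 above 1; between times in saline, 8 of the 9 genes compared lie below -1.

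Between injection times in saline, 8 of the 9 genes compared were lower by 2-fold or more at ZT14, where 3.48% of all 24061 genes were lower and 8.4% higher. In vancomycin 7 of 10 were lower, where 3.27% of all 23324 genes were lower and 9.43% higher. Centring on the median in place of the 75th percentile changed the shares of all genes to 4.52% lower and 6.88% higher in saline and to 4.55% and 7.65% in vancomycin. It moved the median of all genes by -0.11 and -0.12, and no fat cell gene changed its call. The genes were chosen on these differences, so the counts are a description and nothing is read from them. The gene nearest inside the 2-fold rule in saline was Fabp4 (-1.23), and the one outside it was Lep (0.38).

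Over both injection times, limma fitted treatment and time as additive terms on 2 arrays per treatment, and 0 of 24640 genes passed an adjusted p of 0.05 in either direction (0.0% called). At an unadjusted p of 0.05, 790 genes (3.21%) were higher and 1317 (5.34%) lower with vancomycin. Of the fat cell genes 0 of 10 passed. Plin1 had the smallest SE, with a vancomycin effect of -1.16 ± 0.14 (SE, limma, adjusted p = 0.52). It alone had an unadjusted p under 0.05, at 0.00463, and the ZT14 signals of that probe were not well above background. Cidec had -1.15 ± 0.38 (limma adjusted p = 0.603) and Cidea 1.04 ± 0.35 (limma adjusted p = 0.613). Ucp1 had 2.14 ± 1.11 (limma adjusted p = 0.695), which rests on its ZT2 pair. For Adipoq, Cfd, Plin4, Lep, Fabp4 and Retn the effects ran from -0.91 to 0.10, with adjusted p of 0.687 to 0.981. In data simulated for this fit, 24% of 50 genes changed by 4 log2 units were called, and 0% of 50 changed by 2. There were 4 false calls. The simulation drew spreads from the prior over all genes and not from each gene's own. It therefore does not show which effects were detectable for the fat cell genes.

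Of 25 other genes known from white fat cells, 10 were lower by 2-fold or more with vancomycin at ZT2 and 0 higher, with a median of -0.66. At ZT14, 3 of 22 were lower and 1 higher (median -0.17). Between times, 12 of 25 were lower at ZT14 in saline (median -0.72) and 6 of 24 in vancomycin (median -0.38), with 0 higher in each. Among all genes, 3.89% were lower and 1.98% higher with vancomycin at ZT2, and 2.88% and 1.62% at ZT14. Between times, 3.48% of all genes were lower and 8.4% higher in saline, and 3.27% and 9.43% in vancomycin. In limma 0 of the 25 passed.

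Adrb3, the beta-3 adrenergic receptor of fat cells, was above background on the ZT2 arrays only. Its centred signals were -1.25 and -2.43 there, a difference of -1.17, and ZT14 minus ZT2 in saline was -4.66 or lower as a bound. Thrsp, a regulator of fat synthesis, was high on saline ZT2 (0.18) and lower on the other arrays (-1.42, -1.67 and -1.76). Car3, a carbonic anhydrase abundant in fat, read 3.45, 1.83, 0.77 and 2.71, which is -1.62 with vancomycin at ZT2 and 1.94 at ZT14. Retnla, a relative of resistin, was 0.18 with vancomycin at ZT2. At ZT14 it was -1.27 or lower as a bound, since its vancomycin signal there was not well above background.

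The other named examples of that list stayed under 2-fold. Lipe (hormone-sensitive lipase), Lpl (lipoprotein lipase), Slc2a4 (the insulin-responsive glucose carrier) and Aqp7 (a glycerol channel, also of the proximal tubule) differed by -0.24 to 0.32 with vancomycin at ZT2. Between times in saline they differed by -0.41 to 0.52, and Lpl was -0.86 with vancomycin at ZT14. Lpl and Aqp7 are also made by kidney cells or muscle, and the list was not picked for genes absent from kidney.

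Of 17 other brown fat and thermogenic genes compared at ZT2, 1 was higher with vancomycin and 2 lower, with a median of 0.08, and at ZT14 0 of 16 were higher or lower. The higher one was Cox8b, a cytochrome oxidase subunit of brown fat and muscle, with centred signals of -1.91, -0.08, -3.89 and -3.08. Its differences with vancomycin were 1.83 at ZT2 and 0.81 at ZT14, the direction seen for Cidea. Dio2, which makes active thyroid hormone in brown fat, was lower at ZT2 (-1.61). Prdm16, a factor of brown fat identity, differed by 0.91 at ZT2 and -0.58 at ZT14. Ppargc1a, the coactivator of mitochondrial genes, differed by 0.08 and 0.10, Kcnk3 by -0.09 and -0.21, and Cox7a1 by 0.25 and 0.91. Elovl3, an elongase of brown fat, was well above background on 0 arrays, as were 4 more genes of that list. Between times in saline, 3 of the 17 were lower and 1 higher at ZT14 (median -0.17). In vancomycin 1 of 17 was lower and 0 higher (median -0.23), so most of this list did not share the lower ZT14 signal of Cidea.

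Lipid droplet proteins outside the chosen genes stood near the median of all genes. Of 14, 1 was lower and 0 higher with vancomycin at ZT2 (median 0.11). Plin2, the perilipin of most cell types, ran against the fat cell genes and was higher at ZT14, by 1.68 in saline and 1.30 in vancomycin. Plin3, Plin5, Cideb, Mgll and Pnpla2 differed by -0.27 to 0.84 with vancomycin at ZT2. Triglyceride synthesis genes had a median of -0.03 over 15 at ZT2, with Fasn at -0.34, Dgat2 at -0.10, Acly at 0.37 and Scd1 at -0.59.

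Adipokine receptors and fat cell transcription factors differed by less than 2-fold with vancomycin at ZT2 in the named examples. Of the other genes named here, Rbp4 and Fabp5 (-1.72) were lower by more than 2-fold. The adiponectin receptors Adipor1 and Adipor2 differed by -0.23 and -0.11 at ZT2, and Cdh13, which binds adiponectin, by -0.47. Lepr, the leptin receptor, was higher at ZT14 by 1.06 in saline and 1.33 in vancomycin, while Lep itself was level. Rbp4, a secreted retinol carrier on the adipokine list, was lower with vancomycin at ZT2 (-1.79). Pparg, the master factor of fat cells, read -0.32 on saline ZT2 and -1.03, -1.02 and -0.87 on the other arrays. Cebpa, Cebpb, Ebf1 and Klf15 differed by -0.22 to 0.48 at ZT2. Over the whole list of 14 factors, 1 was lower and 0 higher (median -0.17). Fabp5, the carrier that accompanies Fabp4 in fat cells, read 3.66, 1.94, 1.86 and 2.11, again with saline ZT2 apart.

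**Figure D4:**
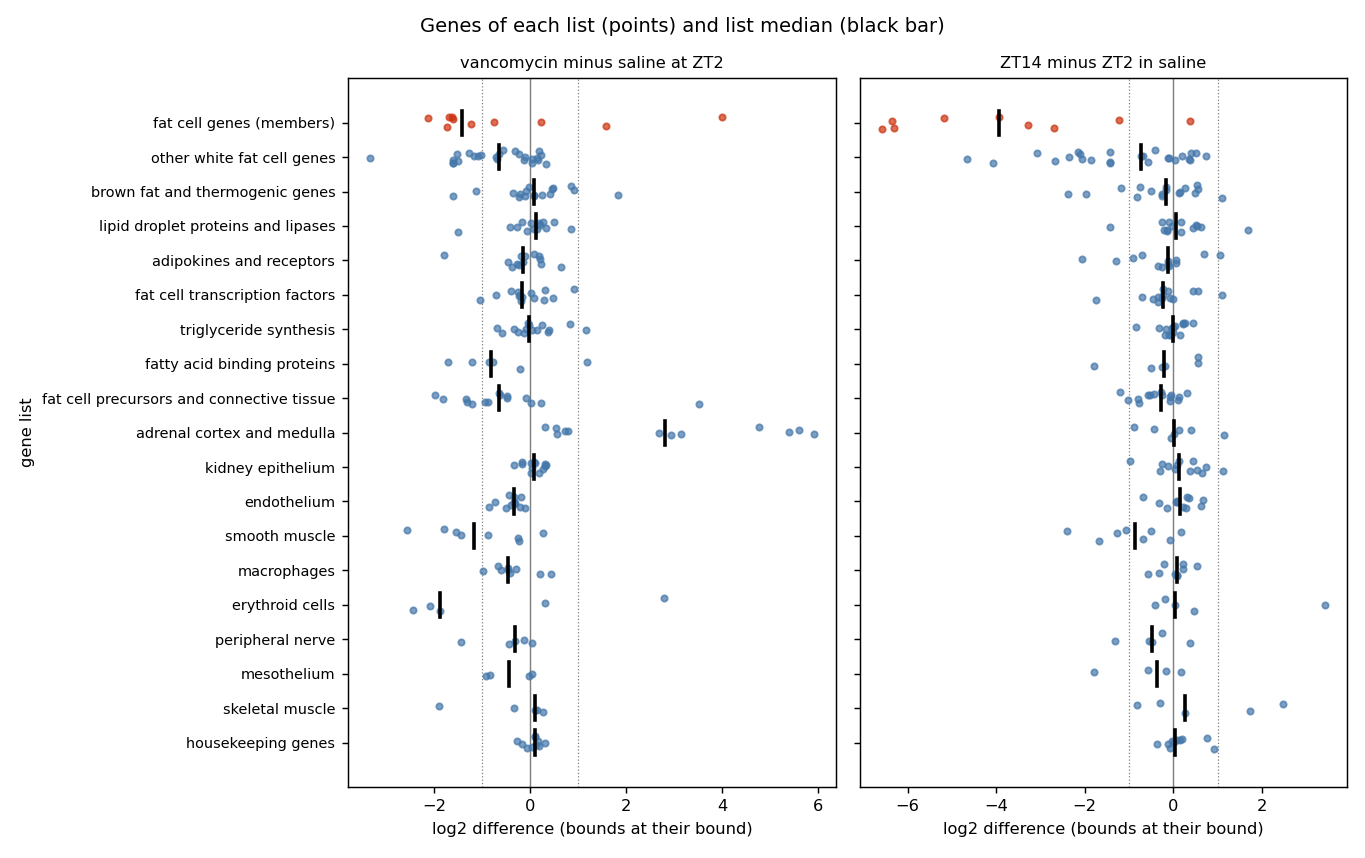
Log2 difference of each gene (points) and the median (black bar) for the fat cell genes in red and 18 other gene lists in blue; the left panel is vancomycin minus saline at ZT2, the right panel ZT14 minus ZT2 in saline, with dotted lines at 2-fold and bounds drawn at their bound. The fat cell genes have medians of -1.42 and -3.94, the adrenal genes 2.81 at ZT2, and the kidney epithelium 0.09 and 0.14.

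The genes closest in pattern were taken over 13694 candidates, which are genes outside the chosen 10 that were above background on all 4 arrays and carry a RefSeq symbol other than a Gm, LOC or Rik name. They were ordered by the root mean square difference of log2 signals after each gene was centred on its own mean. Among the chosen genes above background on all 4 arrays, Cfd (0.057) and Cidec (0.60) were nearer to Adipoq than any candidate. The chosen genes were picked on the differences between times, which this measure also uses, so nothing is read from that order. The candidates nearest to Adipoq were Ftcd (1.41), Mrap (1.43), Sntg2 (1.65), Tmprss11b (1.67), Hp (1.82), Rcor2 (1.82), Fgg (1.85) and Cyp27b1 (1.92). Mrap and Hp are also among the other white fat cell genes; Mrap was lower with vancomycin at ZT2 (-1.02) and at ZT14 in saline (-3.08). Those nearest to Cidea were Ftcd (0.66), Cox8b (0.68), Sntg2 (0.84), Tmprss11b (0.85), Cyp27b1 (0.95), Orm3 (0.98), Ppard (1.08) and Slc4a5 (1.097). With 4 arrays, likeness of this kind is a description, and for Adipoq it uses ZT14 signals that were not well above background. Genes that were dim at ZT14 as Adipoq was, Adrb3 among them, were no candidates. The genes named are therefore the nearest candidates and not the nearest of all genes.

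The tissue label was checked on kidney epithelium, whose 13 genes, Umod, Slc34a1, Lrp2 and Slc12a3 among them, were well above background on all 4 arrays. The sum of their signals was 1093, 1198, 1529 and 1594 times the 75th percentile, and their median difference with vancomycin was 0.09 at ZT2. Housekeeping genes had a median difference of 0.10 at ZT2 and 0.05 between times in saline. They were not all level between times: Gapdh was higher at ZT14 by 0.92 in saline and 0.98 in vancomycin. Actb differed by -0.03 and 0.01, and Hprt by -0.06 and -0.13. Past 2-fold between times were 0 of 10 in saline and 1 of 10, higher, in vancomycin.

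Markers of other tissues differed between the same arrays. Of 12 adrenal genes, 7 were higher with vancomycin at ZT2 (median 2.81) and 7 at ZT14 (median 1.04), where 1.98% and 1.62% of all genes were higher. The summed adrenal signal was 1.42, 8.68, 1.51 and 2.13, with 7, 12, 7 and 12 of 12 well above background. Cyp11b1 and Chga were above background with vancomycin alone, whereas Star and Cyp21a1 were above background on every array. Vancomycin ZT2, where Ucp1 and Cidea were highest, was thus also where the summed adrenal signal was highest. On vancomycin ZT14 the 12 adrenal genes were above background and Ucp1 was not. The summed adrenal signal there (2.13) was also below that of vancomycin ZT2 (8.68). The part of adrenal RNA in these differences was not tested.

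Smooth muscle and connective tissue genes differed in the direction of the white fat genes at ZT2. Of 8 smooth muscle genes, 4 were lower with vancomycin at ZT2 (median -1.17) and 4 lower at ZT14 in saline (median -0.87). Among all genes 3.89% and 3.48% were lower in these 2 pairs. The summed smooth muscle signal was 77.3, 36.1, 36.8 and 38.0, so saline ZT2 stood apart as it did for Plin4, Fabp5 and Thrsp. Acta2 was -1.79 and Myh11 -1.55 with vancomycin at ZT2. Of 15 genes of fat cell precursors and connective tissue, 5 were lower and 1 higher at ZT2 (median -0.65), with Col1a1 at -1.83, Pdgfra at -0.10 and Pi16 at -0.62. The higher one was Dlk1, a marker of preadipocytes and also of the adrenal cortex, at 3.52. The part of these tissues in the fat cell differences was not tested.

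Erythroid genes also differed at ZT2, with 3 of 5 lower with vancomycin, among them Hba-a1 (-2.09) and Alas2 (-2.45), and 1 higher. Among all genes 3.89% were lower and 1.98% higher. The summed erythroid signal was 33.9, 11.1, 34.6 and 42.8. Endothelial genes, which bear on Fabp4, had a median of -0.35 at each time, with 0 of 12 lower or higher and summed signals of 27.9, 21.6, 32.9 and 26.0. Pecam1 differed by -0.31, Cdh5 by -0.35 and Gpihbp1 by -0.87 at ZT2. Macrophage genes had medians of -0.47 and -0.48 at the 2 times, with 0 of 9 past 2-fold. Nerve, mesothelium and skeletal muscle lists of 4 or 5 genes had medians of -0.32, -0.44 and 0.10 at ZT2. Their part in the fat cell differences was not tested.

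Across 20761 genes, fewer than the 24640 kept, the 2 arrays of a slide correlated at 0.986 (ZT2) and 0.990 (ZT14). Arrays of different slides correlated at 0.972 to 0.977. Between 60.6% and 64.7% of an array's spots were well above background. Probes with replicate spots had a median SD of 0.042 to 0.049 log2 units within an array, which is spread between spots and not between animals.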

How the data were processed

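Kidney RNA of 4 mouse samples was labelled with Cy3 and hybridized to 4 single-colour Agilent arrays. Per the file headers, the deposited intensity values were extracted with Agilent Feature Extraction 10.7.1.1, whereas the submitters' processing notes name 9.5.1.1; the processed intensity is background subtracted and not normalized between arrays. A further table of intensity values from the authors, whose 4 columns share 1 median (35.2), served as an alternative. Precision is limited by the number of arrays.

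Log2 processed signals were centred on the 75th percentile of each array. Spots marked as not uniform or as outliers were dropped, and spots of 1 probe were averaged. Probes entered where 50% or more of the spots passed the flag for signal well above background on any array, and each gene was represented by its brightest probe. Differences between single arrays used a 2-fold rule with no test. limma 3.58.1 (R 4.3.3) fitted treatment and injection time, with 1 residual degree of freedom and Benjamini-Hochberg adjustment over 24640 genes; dim probes entered with their measured values, and the fit was tested on simulated data. With 1 array per group, the SE and p-values rest on how far the vancomycin differences at the 2 times disagree. limma moderates that disagreement with the spread of all genes. It is not a spread between animals or replicates.

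The fat cell genes and the gene lists were chosen with earlier results of these data known. Each fat cell gene is named, with the examples marked in each list, and the 8 candidates closest to Adipoq and to Cidea. Of 220 list genes, 219 were on the array and 203 were kept. Alternatives were median centring, quantile normalization, normexp with an offset of 50, the authors' values, a pseudocount of 16, stricter or no filters, the mean over probes, other limma terms and leaving out each array. Probe coordinates are mm9, per the file headers. Promoters are GRCm38.p6, and no coordinates of the 2 builds were combined. Whether a probe lies in an exon or UTR was not analysed here, and neither the position nor a sequence of Cidea is given.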

Additional observations from a re-analysis of the deposited data

Results flagged for a closer look

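In 4 fat cell genes the difference between vancomycin and saline had opposite signs at the 2 injection times. With 1 array per group, the difference between times was not tested. Retn, resistin, was -2.13 at ZT2 and at least 1.53 at ZT14, so the effects were at least 3.66 log2 units apart. Plin4, a perilipin, was -1.69 and 0.84, which is 2.53 apart. For Fabp4, the fatty acid carrier, the values were -0.77 and 0.24, or 1.01 apart. Lep, leptin, was 0.23 and -0.03, a gap of -0.26 that lies near 0 at both times.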

How the results depend on the processing

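The counts of fat cell genes past 2-fold were within 1.5 times of the values given in 67 comparisons of a count with an alternative and moved in 7. With probes required to be well above background on all 4 arrays, 6 genes remained to be measured. At ZT2 1 was higher and 3 lower with vancomycin, at ZT14 0 were higher, and between times 5 were lower in saline and 3 in vancomycin. Of all 20772 genes under this filter, 1.33% were higher and 3.01% lower at ZT2, and 1.1% were higher at ZT14. Between times 2.8% of them were lower in saline and 2.75% in vancomycin. With normexp and with a pseudocount of 16, 0 genes were higher with vancomycin at ZT14, since Retn then fell short of 2-fold (0.39 at the least over the alternatives). Of the single values, 349 stayed and 63 moved, and no difference past 2-fold changed sign. The Plin1 difference at ZT2 ran from -1.23 to -0.71 and that of Ucp1 from 1.81 to 4.05. Differences near 0 took both signs for Cfd and Lep at ZT14 and for Fabp4 between times in vancomycin, up to 0.30. In limma, 0 genes passed under any of 10 alternatives, and adjusted p of the fat cell genes ran from 0.373 to 1.0. Without saline ZT2 or without vancomycin ZT2, the difference over both times is that of the ZT14 pair, a value with no test, and it changed sign for Plin4 (0.84), Fabp4 (0.24), Retn (1.81) and Lep (-0.03). Without either ZT14 array it is that of the ZT2 pair, from -2.13 for Retn to 4.01 for Ucp1. Dim signals near background limit Adipoq, Plin1, Retn and Ucp1. No paired analysis was possible because each group holds 1 sample and the labels carry no replicate number; the injection-time term of the limma fit already sets vancomycin against saline within a slide.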
